A study of Mus musculus with 14 samples.

Results

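Chondroblasts of the mouse forelimb bud were compared with the osteochondral progenitors (OCPs) isolated 1 day earlier in development, over all expressed genes and in both directions. The comparison used 6 of the 14 RNA-seq libraries of the study, chosen by their labels: 3 of chondroblasts (S9+COL2+, E11.5) and 3 of OCPs (S9+Pαhi, E10.5). Both populations came from forelimb buds of Sox9 IRES-EGFP embryos kept on a mixed Swiss Albino background, in which EGFP reports Sox9 expression, and no treatment was applied. Each library held sorted cells from many pooled buds, so the embryos within a library cannot be told apart. The other 8 libraries, all from E10.5, held S9-Pαhi limb mesenchymal progenitors (LMPs), S9-JAG1+ LMPs and S9-SCA-1+ cells, and they entered the fit and are quoted as levels only. The labels give chondroblasts and OCPs the same gate, viable cells without surface markers of blood, endothelium, leukocytes or ectoderm and with Sox9 reporter and high PDGFRα. The name S9+COL2+ adds expression of Col2a1, and no step of the stated gate measures it. Stage and population changed together, and the 2 cannot be told apart in this design. The study calls the replicates biological, and the labels do not say what separated them, so the p values measure the spread between these libraries.

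Limb cartilage forms when mesenchymal progenitors condense in the core of the bud, switch on the transcription factor SOX9 and start to secrete a matrix of type II, IX and XI collagens and proteoglycans. SOX9 acts early, already in progenitors that can still form bone or cartilage, and with its partners SOX5 and SOX6 it drives the later matrix genes of the chondroblast. The bud is patterned at the same time along its proximal-distal axis. MEIS factors, IRX3 and IRX5 mark the part near the body, and the 5′ HOXA and HOXD factors the part towards the digits. Condensations form in the upper limb first and in the hand plate last.

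The 3 OCP libraries held 20316583 to 27404749 counted reads and the 3 chondroblast libraries 24283536 to 28043776. Levels are given in CPM, read counts divided by the TMM-scaled library size and set to one common scale, always in the order of replicates 1, 2 and 3, and 3 counts in 1 library correspond to 0.101 to 0.143 CPM, the level that a gene without reads could still have by counting error alone. Of 24454 genes in the table, 15125 had enough counts to be tested. The root mean square difference in log2 CPM was 0.331 to 0.448 between chondroblast libraries, 0.446 to 0.679 between OCP libraries and 0.661 to 0.906 across the populations. Single libraries stood apart in sets of genes. In chondroblast replicate 3, 151 genes lay at least 1.5 log2 units below the mean of the other 2 libraries where those agreed, against 8 above. The same count was 129 below and 24 above in OCP replicate 1, and 85 below and 184 above in OCP replicate 2. Results that rest on these libraries are given with and without them.

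Between the populations, 1175 of the 15125 genes were called different, which is 7.77% (edgeR quasi-likelihood F test, adjusted p of at most 0.1 and absolute log2 fold change of at least 1.2). Of these, 999 genes were higher in chondroblasts (6.60% of all tested) and 176 were lower (1.16%), so that 85.0% of the calls lay on the chondroblast side. The excess on that side depended on the limit on the fold change. Without it, 2769 genes (18.3%) were higher and 2494 (16.5%) lower at the same adjusted p, and the median log2 fold change over all tested genes was -0.0151. Among the called genes, 959 of the higher and 156 of the lower had chondroblast and OCP libraries that did not overlap. The call itself favours such separation, so these counts add no support, and the share over all tested genes is not given here. The median log2 fold change was 1.90 for the higher genes and 1.70 in size for the lower ones, and 442 higher but 57 lower genes differed by at least 2 log2 units. Without chondroblast replicate 3 and OCP replicate 1 together, a choice made after seeing the data, 843 genes were called higher and 138 lower. Counts of calls in the gene lists below are to be read against the 6.60% and 1.16% of all tested genes.

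The calls were most frequent among genes of low level. Of the 1763 tested genes whose mean stayed under 1 CPM in both populations, 15.3% were called higher in chondroblasts and 3.35% lower. A gene this low can pass the count filter through the libraries of 1 population only, so these shares are not independent of the filter. Of the 2901 genes with at least 100 CPM in either population, 1.31% were called higher and 0.517% lower. At the low end, 19 of the genes called higher had no read in any OCP library. Chondroblasts had the highest mean of the 5 populations for 786 of the 999 genes called higher, against 4909 of all 15125 tested genes. OCPs had the highest mean for 85 of the 176 genes called lower, against 1971 of all tested genes. The calls were chosen for a difference between chondroblasts and OCPs, which by itself raises both counts above the shares of all genes. Chondroblasts were also the only population of E11.5. The plot of all tested genes shows the calls by level, with the chondroblast calls reaching down to the lowest levels.

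**Figure D1:**
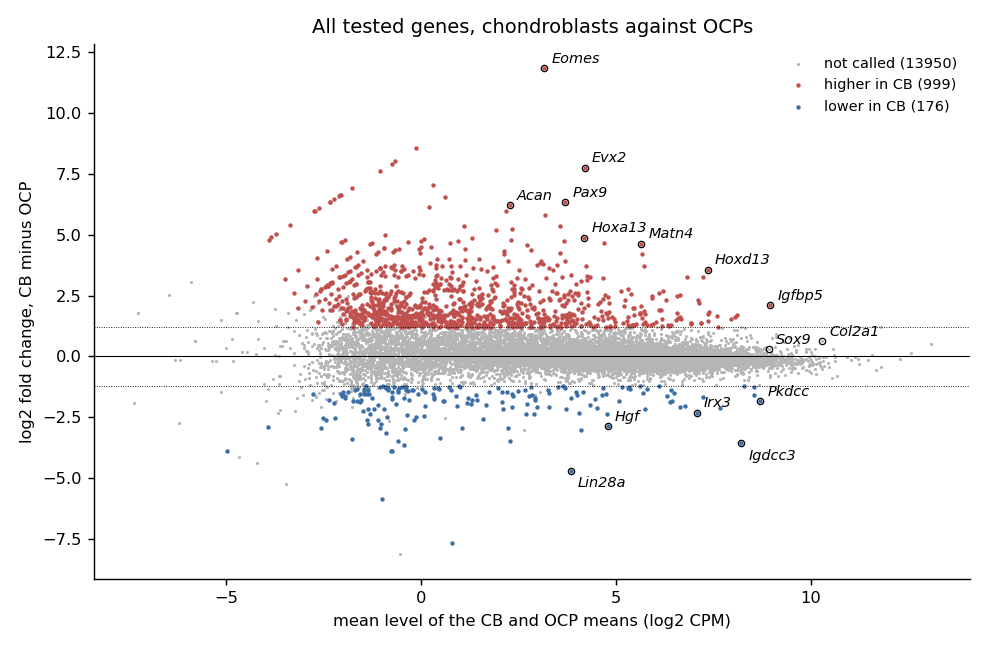
Log2 fold change between chondroblasts (CB) and OCPs of each tested gene (y axis) against the mean of both population means in log2 CPM (x axis). Points are genes, red for the 999 called higher in chondroblasts, blue for the 176 called lower and grey for the others, and dotted lines mark the limit of 1.2 on the fold change; genes without reads in both populations are not drawn. Named genes are ringed; Sox9 and Col2a1 lie near 0 at high levels, while Acan, Matn4, Pax9, Evx2 and Eomes lie far above.

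The gate genes put both populations at like levels of Sox9 and Pdgfra, while 3 of the 4 chondroblast markers were far higher in chondroblasts. Sox9, the founding factor of the cartilage lineage, measured 434, 432 and 445 CPM in OCPs and 411, 571 and 625 CPM in chondroblasts, which overlapped, with a log2 fold change of 0.29 ± 0.18 (SE, n = 3 against 3, adjusted p = 0.246). Pdgfra, which encodes the sorted surface receptor, differed by 0.27 ± 0.18 (adjusted p = 0.285). Col2a1, the gene of the main cartilage collagen, was already at 695, 1228 and 1045 CPM in OCPs and at 1274, 1451 and 1886 CPM in chondroblasts. All chondroblast libraries lay above all OCP libraries, with 1274 against 1228 CPM at the nearest, and the log2 fold change of 0.64 ± 0.23 (adjusted p = 0.0534) stayed under the limit for a call. Leaving out OCP replicate 1 or chondroblast replicate 3 gave 0.44 in each case, with an adjusted p of 0.171 and 0.213 (edgeR), and leaving out both gave 0.26 (adjusted p = 0.447). Ly6a, which encodes SCA-1, was near the counting limit in both populations, with means of 0.248 CPM in OCPs and 0.223 CPM in chondroblasts.

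Acan encodes aggrecan, the large proteoglycan that holds water in cartilage. Its 3 OCP libraries held 0.203, 0.143 and 0.0362 CPM and its chondroblast libraries 3.43, 10.3 and 14.9 CPM, a log2 fold change of 6.22 ± 0.68 (adjusted p = 2.23e-05). Matn4 encodes matrilin 4, an adaptor protein of the cartilage matrix, and rose from 0.852, 4.71 and 5.97 CPM to 73.2, 104 and 111 CPM (4.64 ± 0.44, adjusted p = 7.59e-06). OCP replicate 1 was the lowest OCP library for Matn4, and without it the log2 fold change was 4.16. Cnmd, the gene of the angiogenesis inhibitor chondromodulin, measured 1.62, 5.28 and 4.67 CPM in OCPs and 16.5, 20.6 and 20.7 CPM in chondroblasts (2.32 ± 0.36, adjusted p = 0.00173). No library overlapped between the populations for any of these 3 markers. Cnmd had no read in any library of the other 3 populations, and Acan and Matn4 stayed at means of at most 0.454 CPM there, while the OCP mean of Acan, 0.127 CPM, was no higher than those. In a bulk sample, fewer cells with a gene and less RNA of that gene per cell cannot be told apart.

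The 250 bases before the gene starts of these 3 markers are shown because the genes were called in the same direction while these stretches differ widely in CG content. They are taken before the start given in the promoter table, printed 5′ to 3′ on the gene's strand, come from RefSeq on GRCm38.p6 and have each CG pair in capitals. The table holds 2 windows for Matn4, of which the first is shown, and none for Sox9 was used. Acan starts at chr7:79053226 on the plus strand, and its window chr7:79052976-79053225 holds 26 CG pairs at 74.4% G and C.
Acan: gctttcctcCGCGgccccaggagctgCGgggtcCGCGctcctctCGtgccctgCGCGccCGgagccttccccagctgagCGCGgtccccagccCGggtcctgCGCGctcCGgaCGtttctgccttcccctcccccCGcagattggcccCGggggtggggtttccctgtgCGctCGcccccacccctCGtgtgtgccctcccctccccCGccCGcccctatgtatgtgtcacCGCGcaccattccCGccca
The Matn4 window, chr2:164405161-164405410 on the minus strand, holds 8 CG pairs at 54.4% G and C.
Matn4: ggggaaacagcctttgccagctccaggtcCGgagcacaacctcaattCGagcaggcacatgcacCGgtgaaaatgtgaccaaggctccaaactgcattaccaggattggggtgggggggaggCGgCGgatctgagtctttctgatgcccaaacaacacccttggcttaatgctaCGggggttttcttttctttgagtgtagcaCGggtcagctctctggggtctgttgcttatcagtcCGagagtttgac
The Cnmd window, chr14:79662184-79662433 on the minus strand, holds 0 CG pairs at 54% G and C. The gene annotation places Cnmd at chr14:79637682-79662194, so its annotated 5′ end lies just inside this window.
Cnmd: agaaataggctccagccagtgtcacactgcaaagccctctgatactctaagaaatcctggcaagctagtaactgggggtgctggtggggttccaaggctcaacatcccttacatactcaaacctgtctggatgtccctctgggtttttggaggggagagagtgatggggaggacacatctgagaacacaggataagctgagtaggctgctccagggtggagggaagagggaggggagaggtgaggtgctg
The 2 hexamers ACAAAG and ACAATG, core letters of the sites bound by SOX proteins, were searched on both strands and are in none of these 3 windows. Of all 27025 promoter windows, 25.5% hold at least 1 of them. The share was 17.03% of the 11743 tested genes with a window, 17.2% of the 731 called higher and 19.5% of the 118 called lower. At least 10 CG pairs were present in 72.2% of the windows of tested genes, in 56.5% of those called higher, in 51.7% of those called lower and in 32% of the 25 windows of cartilage collagen and matrix genes.

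Among the collagens of cartilage, only chains of types IX and XI passed the call. Of 7 tested collagen genes of the cartilage list, 3 were called higher and none lower, against 6.60% and 1.16% of all genes, and all 7 were higher at adjusted p alone, Col2a1 not without OCP replicate 1 or chondroblast replicate 3. Their median log2 fold change was 0.93. Col11a2 (2.54 ± 0.37), Col9a2 (2.50 ± 0.28) and Col9a3 (2.40 ± 0.28) differed the most, and Col9a2 stood at 14.9, 36.6 and 34.6 CPM in OCPs and at 119, 165 and 202 CPM in chondroblasts. Col9a1, the partner chain of these last 2 in type IX collagen, differed by only 0.76 ± 0.16 (adjusted p = 0.00391), and its OCP libraries were already at 196, 222 and 239 CPM. Per length, the OCP means in RPKM were 52.9 for Col9a1, 10.45 for Col9a2 and 6.86 for Col9a3, and the chondroblast means 89.8, 59.0 and 36.2, so the chains of type IX collagen were nearer to each other in level in chondroblasts. Col11a1, the main chain of type XI collagen, differed by 0.93 ± 0.12. Col10a1, the collagen of hypertrophic cartilage, was not tested, with means of 0 CPM in OCPs and 0.0471 CPM in chondroblasts.

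Of 23 tested proteins of the cartilage matrix, 14 were called higher in chondroblasts and none lower, with a median log2 fold change of 2.14. The median was 1.69 without chondroblast replicate 3, 1.63 without OCP replicate 1 and 1.497 without both. Matn1, which encodes matrilin 1, measured 0.0406, 0.19 and 0.145 CPM in OCPs and 2.12, 3.49 and 4.01 CPM in chondroblasts (4.65 ± 0.61, adjusted p = 0.000213). The small leucine-rich proteoglycans that bind collagen fibrils made up 5 of these calls. Epyc (epiphycan) had 2 counts over the OCP libraries and 194 over the chondroblast libraries, a ratio of 84.3 (95% interval 23.0 to 701, counting error only). Fmod (fibromodulin) rose from a mean of 0.448 to 8.28 CPM, Dcn (decorin) by 3.20 ± 0.45 on the log2 scale, Lum (lumican) from 12.1 to 72.4 CPM and Bgn (biglycan) from 13.9 to 42.2 CPM, each without overlap of libraries. Susd5, Mia and Comp were among the other calls, with log2 fold changes of 3.11 ± 0.33, 2.70 ± 0.38 and 2.68 ± 0.71.

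Some textbook cartilage proteins were not among the calls. Vcan encodes versican, the large proteoglycan of precartilage mesenchyme, and measured 787, 1969.8 and 1331 CPM in OCPs against 1634, 1494 and 1878 CPM in chondroblasts, with overlap (0.29 ± 0.23, adjusted p = 0.384). Hapln1, whose product links aggrecan to hyaluronan, stood at means of 3.70 and 2.64 CPM (-0.48 ± 0.25, adjusted p = 0.174). Matn3, a further matrilin, had means of 5.63 and 4.44 CPM (-0.34 ± 0.21, adjusted p = 0.252). Per length, the mean level of aggrecan RNA in chondroblasts was 1.299 RPKM, that of Matn4 37.4 RPKM, that of Vcan 114 RPKM and that of Col2a1 299 RPKM. Versican thus remained the more abundant large proteoglycan in the chondroblast libraries. The plot of cartilage genes gives every library for these members.

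Some enzymes that build and process the matrix were called higher, and most were not called. Of 31 tested genes of glycosaminoglycan synthesis, 4 were called higher and none lower (median 0.25), and 15 were higher at adjusted p alone. Over all tested genes, 6.60% were called higher and 18.3% were higher at adjusted p alone. These 4 were Csgalnact1, which starts chondroitin sulphate chains (0.092 to 1.88 CPM, 4.24 ± 0.68), Papss2, which makes the sulphate donor (2.58 to 26.2 CPM, 3.34 ± 0.39), Sulf1, an extracellular heparan sulphate sulphatase (28.7 to 275 CPM, 3.26 ± 0.29), and the chondroitin sulphotransferase Chst11 (22.9 to 56.5 CPM, 1.304 ± 0.19), all as means over 3 libraries. Chst11 was at 1.09 without chondroblast replicate 3 and at 1.14 without OCP replicate 1, and no longer called. The ubiquitous donor synthase gene Papss1 differed by 0.08 ± 0.08 (adjusted p = 0.507). Of 30 genes that modify and cross-link collagen, 4 were called higher and none lower (median 0.50), again against 6.60% called higher over all tested genes. They were led by P4ha3, a prolyl hydroxylase subunit, at 0.771, 2.19 and 2.35 CPM in OCPs and 12.3, 21.4 and 16.2 CPM in chondroblasts (3.23 ± 0.32). The cross-linking oxidase Lox followed (2.05 ± 0.32), while the collagen chaperone Serpinh1 overlapped between populations (0.19 ± 0.11, adjusted p = 0.226). Of 21 genes of the secretory pathway, 2 were called higher, near the 6.60% of all tested genes (median -0.09), the coat protein gene Sec24d (1.24 ± 0.16) and the transcription factor gene Creb3l1 (1.42 ± 0.34). The chaperone gene Hspa5 was lower at adjusted p alone (-0.33 ± 0.10, adjusted p = 0.0257). Sec24d was under the limit without chondroblast replicate 3 (1.17) and without OCP replicate 1 (1.08) or 2 (1.15).

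Transcription factors of chondrogenesis were called higher in 10 and lower in 2 of 27 tested members, with a median of 0.61. Sox6 and Sox5 encode partners that act together with SOX9, and they differed from each other in this comparison. Sox6 measured 31.8, 44.8 and 51.7 CPM in OCPs and 116, 147 and 184 CPM in chondroblasts (1.80 ± 0.21, adjusted p = 3.8e-05). Sox5 was at 84.9, 106 and 100.04 CPM in OCPs and at 99.1, 114 and 139.9 CPM in chondroblasts, with overlap (0.28 ± 0.14, adjusted p = 0.162). The difference between the 2 genes was not itself tested. Nkx3-2, a homeodomain repressor that promotes the chondrogenic state, was at 0.162, 0.143 and 0.109 CPM in OCPs and at 5.72, 9.10 and 12.1 CPM in chondroblasts (5.98 ± 0.43, adjusted p = 1.97e-05).

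The RUNX genes, whose products act in blood, cartilage and bone, split. Runx1 rose from 0.446, 0.903 and 1.34 CPM to 17.8, 24.5 and 31.5 CPM (4.76 ± 0.31, adjusted p = 3.36e-07). Runx3 rose from a mean of 0.59 to 8.84 CPM (3.92 ± 0.31, adjusted p = 1.81e-06). Runx2, the main osteoblast and hypertrophy factor, stood at means of 43.3 and 44.3 CPM with overlap (0.03 ± 0.36, adjusted p = 0.954), and its lowest libraries were OCP replicate 1 with 25.0 CPM and chondroblast replicate 3 with 26.5 CPM. Other factors called higher were Mef2c (2.71 ± 0.21), Foxc2 (2.31 ± 0.26), Nfia (2.08 ± 0.28), Nfib (1.57 ± 0.29) and Foxc1 (1.37 ± 0.26). The 2 members called lower were Zbtb16, a zinc finger factor of early limb patterning (means of 52.6 and 14.7 CPM, -1.84 ± 0.19), and Sox8, a relative of Sox9 (16.2 and 6.85 CPM, -1.24 ± 0.17). The call of Sox8 lay close to the limit and was lost without chondroblast replicate 3 (-1.13) or OCP replicate 3 (-1.17), and that of Foxc1 was lost without OCP replicate 1 (1.14).

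Some genes of cartilage subtypes and of neighbouring skeletal tissues were called higher in chondroblasts, and most did not pass. Of 18 tested genes of the joint interzone, the strip of cells that later separates 2 cartilages, 8 were called higher and none lower, with a median of 1.17. Gdf5, the ligand that marks the interzone, was at 4.22, 3.28 and 4.27 CPM in OCPs and 26.4, 42.2 and 35.3 CPM in chondroblasts (3.13 ± 0.21, adjusted p = 5.91e-07). Wnt4 (2.58 ± 0.47), Creb5 (2.09 ± 0.32), a regulator of joint lubricant genes, and the ETS factor gene Erg (1.75 ± 0.19) were called with it. Of 12 tested growth plate signals, 5 were called higher. Pthlh, the ligand that holds back hypertrophy, went from a mean of 0.0497 to 1.53 CPM (4.70 ± 0.75), while its receptor gene Pth1r was at 68.3 and 48.9 CPM (-0.48 ± 0.19, adjusted p = 0.0773). Ihh, which signals from prehypertrophic cells, stayed under 1 CPM on average, at 0.302 and 0.877 CPM, and its libraries overlapped although it was called (1.56 ± 0.57, adjusted p = 0.0555). That call was lost without chondroblast replicate 2 (1.45) or 3 (1.35) and without OCP replicate 1 (1.12) or 3 (1.45).

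Among 22 tested tendon genes, 8 were called higher (median 0.63), and 5 of these encode matrix proteins. Tnc, which encodes tenascin C, rose from 2.72, 7.32 and 5.64 CPM to 106, 105 and 77.4 CPM (4.21 ± 0.60, adjusted p = 0.000206), and Kera, the gene of keratocan, from 0.162, 0.428 and 0.362 CPM to 18.5, 16.9 and 18.4 CPM (5.81 ± 0.26, adjusted p = 2.54e-07). Scx and Mkx, which encode the tendon transcription factors scleraxis and mohawk, overlapped between the populations at -0.23 ± 0.14 and -0.11 ± 0.16 (adjusted p = 0.244 and 0.641). Of 15 osteoblast genes, 4 were called higher: the homeobox genes Dlx5 (3.93 ± 0.35), Dlx6 and Dlx3, and Sparc, the gene of osteonectin (18.2 to 103 CPM, 2.50 ± 0.42). Sp7, the osteoblast factor osterix, was at 2.12 and 4.55 CPM (1.10 ± 0.26, and 1.22 with a call without OCP replicate 1), and Bglap and Ibsp, genes of bone matrix, were too low to be tested. Of 23 adhesion genes of the condensation, 4 were called higher (median 0.38), with the ephrin receptor gene Epha3 at 2.45 ± 0.22 and the collagen-binding integrin gene Itga11 at 1.46 ± 0.23. The cadherin gene Cdh2 and the fibronectin gene Fn1, both linked to condensation, differed by 0.19 ± 0.07 and -0.31 ± 0.13, under the limit for a call. Tnc stands in both the tendon and the condensation lists.

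The 5′ Hox genes and their neighbours pattern the distal limb, and the members at the 5′ ends of the HoxA and HoxD clusters were called higher in chondroblasts. Of 14 tested members, 8 were called higher in chondroblasts and none lower, with a median of 1.61. Hoxa13, required for digit formation, measured 1.05, 1.05 and 1.45 CPM in OCPs and 27.6, 38.6 and 39.3 CPM in chondroblasts (4.87 ± 0.22, adjusted p = 2.43e-08). Hoxd13 measured 27.4, 19.2 and 29.4 CPM in OCPs and 226, 334 and 346 CPM in chondroblasts (3.57 ± 0.21, adjusted p = 2e-07). Evx2, the homeobox gene next to Hoxd13 on chromosome 2 (chr2:74652989-74661520 and chr2:74668225-74671603), went from 0.162, 0.143 and 0.181 CPM to 27.9, 45.6 and 36.05 CPM (7.76 ± 0.47, adjusted p = 2.54e-07). Hottip, a long noncoding RNA beside Hoxa13 on chromosome 6 (chr6:52262775-52267603), went from 0.325, 0.0476 and 0.362 CPM to 6.93, 10.54 and 12.2 CPM. The sources used here do not state whether strand was used in counting, so reads of Hoxa11 and Hoxa11os cannot be told apart where the genes overlap. By its position, Hoxa13 (chr6:52258853-52260880) does not overlap Hottip.

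Along the HoxD cluster the difference shrank step by step away from the 5′ end. The log2 fold changes were 3.57 ± 0.21 for Hoxd13, 2.30 ± 0.20 for Hoxd12, 0.88 ± 0.12 for Hoxd11, 0.41 ± 0.13 for Hoxd10 and -0.50 ± 0.15 for Hoxd9. In the HoxA cluster they were 4.87 ± 0.22 for Hoxa13, 1.39 ± 0.15 for Hoxa11, 0.71 ± 0.10 for Hoxa10 and -0.20 ± 0.11 for Hoxa9. In the S9-JAG1+ LMPs of E10.5 the means were 992 ± 207 CPM (SD, n = 3) for Hoxd13, 119 ± 21.8 CPM for Hoxa13 and 45.2 ± 19.01 CPM for Evx2, against 302 ± 66.2, 35.2 ± 6.57 and 36.5 ± 8.84 CPM in chondroblasts, and these differences were not tested. For Evx2 the spreads of the populations overlapped. Other factors of the distal mesenchyme were mixed: 7 of 27 were called higher and 2 lower, with a median of 0.30. Tfap2b (1.19 to 22.3 CPM, 4.24 ± 0.24) and Sall1 (50.4 to 233 CPM, 2.20 ± 0.17) were among the higher ones, and their means in S9-JAG1+ LMPs were 181 and 534 CPM. Tbx2 was called higher too (1.74 ± 0.16). Msx1 and Lhx2, genes of the undifferentiated distal mesenchyme, overlapped at 0.23 ± 0.17 and 0.36 ± 0.20. The genes called lower were Sall4 and Tcf15, at -1.60 ± 0.25 and -1.58 ± 0.18.

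The list of proximal limb factors had calls in both directions. Of 22 tested proximal factors, 5 were called lower and 4 higher, and the median was -0.54. The 5 lower genes were the TALE homeobox genes Meis1, Meis2 and Meis3 and the Iroquois genes Irx3 and Irx5. Irx3 measured 234, 236 and 203 CPM in OCPs and 79.7, 50.4 and 5.58 CPM in chondroblasts (-2.31 ± 0.61, adjusted p = 0.0132), and Meis1 147, 130.2 and 121 CPM against 55.2, 41.0 and 12.3 CPM (-1.87 ± 0.42, adjusted p = 0.00532). The OCP and chondroblast libraries did not overlap, but chondroblast replicate 3 was far below the other chondroblast libraries for each of the 5. Without it the log2 fold changes were -1.80 for Irx3, -1.66 for Irx5, -1.49 for Meis1, -1.203 for Meis2 and -1.75 for Meis3, and all 5 stayed called. Without OCP replicate 1 as well, Meis2 was at -1.12 and no longer called. The median of the list was -0.32 without chondroblast replicate 3.

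The 4 members of the proximal list called higher included a paired-box gene and other Iroquois genes. Place of expression in the bud was not measured for any member of the list, called higher or lower. Neither direction is therefore read as a change of position here. Pax9 measured 0.284, 0.19 and 0.434 CPM in OCPs and 15.5, 27.9 and 33.4 CPM in chondroblasts (6.34 ± 0.37, adjusted p = 2e-07), while its paralogue Pax1 measured 24.9, 18.7 and 31.6 CPM in OCPs and 34.1, 24.5 and 0.825 CPM in chondroblasts (-0.34 ± 0.70, adjusted p = 0.756). Irx1 rose from 0.568, 0.19 and 0.253 CPM to 3.90, 15.8 and 9.23 CPM (4.80 ± 0.71), opposite in direction to Irx3 and Irx5. Pknox2, a TALE homeobox gene like the Meis genes, rose from a mean of 3.49 to 34.9 CPM (3.32 ± 0.19). The last of the 4 was Irx2, at 0.509 and 1.42 CPM, which was no longer called without chondroblast replicate 2 (1.11) or OCP replicate 1 (1.298). Shox2, needed for the upper limb bones, was lower at adjusted p alone, from a mean of 732 to 424 CPM (-0.79 ± 0.17).

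The HoxC genes, used mainly in the trunk and hindlimb, were called lower in 3 of 8 tested members and higher in none, with a median of -0.95. Hoxc4, Hoxc5 and Hoxc6 were at 28.7 to 46.8 CPM over the OCP libraries, at 24.2 to 40.5 CPM in chondroblast replicates 1 and 2, and at 4.24, 3.77 and 6.13 CPM in chondroblast replicate 3. None of these 3 was called, but Hoxc4 (-1.58) and Hoxc6 (-1.23) were without chondroblast replicate 1. For Hoxc5 the libraries read 28.7, 35.7 and 43.2 CPM in OCPs and 40.5, 32.3 and 3.77 CPM in chondroblasts. The posterior member Hoxc10, known from the hindlimb, was at 8.48, 1.81 and 0 CPM in OCPs and at 0, 0.0342 and 0 CPM in chondroblasts, where 1 count stood against 247, a ratio of 284 (95% interval 50.6 to 11276.5, counting error only). Its libraries overlapped at 0, and its call was lost without OCP replicate 1 and without any of the chondroblast replicates 1, 2 and 3. Hoxc8, at means of 1.60 and 0.566 CPM, was the third call, and was not called without OCP replicate 1 (-1.10) or chondroblast replicate 3 (-1.18) among others. Hoxc9 had 70 counts in OCPs and 1 in chondroblasts, a ratio of 80.6 (14.0 to 3228). The plot of distal and proximal genes shows chondroblast replicate 3 as the lowest point of most genes in its lower panel.

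**Figure D2:**
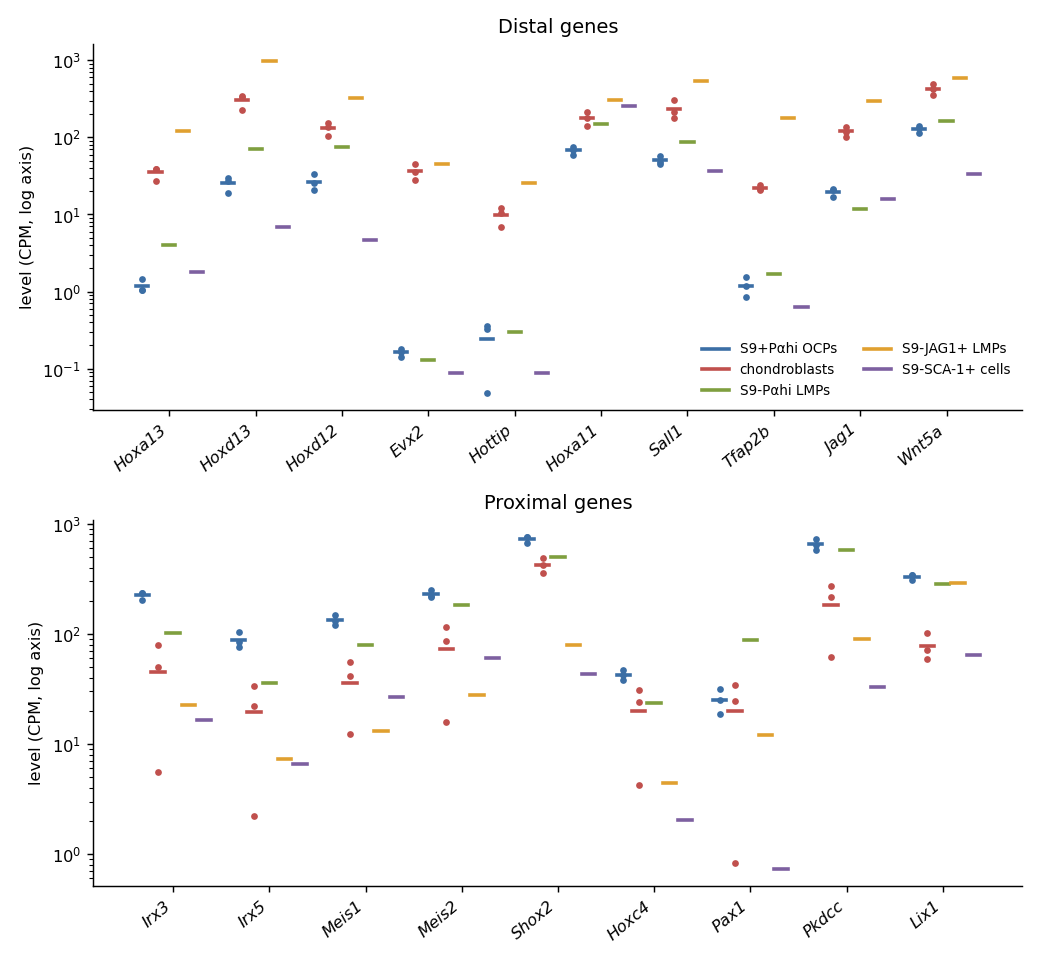
Levels in CPM on a log axis of 10 genes under the title distal (upper panel) and 9 under the title proximal (lower panel). In the lower panel, Hoxc4 belongs to the HoxC genes, and Pkdcc and Lix1 are not in the list of proximal factors. Pax9, Irx1, Irx2 and Pknox2, the members of that list called higher, are not drawn. Dots are the 3 OCP (blue) and 3 chondroblast (red) libraries, and bars are the means of these and of the 3 other populations, named in the legend. Distal genes such as Hoxd13 are higher in chondroblasts than in OCPs and have their highest mean in S9-JAG1+ LMPs, and chondroblast replicate 3 lies far below the other red dots for Irx3, Irx5, Meis1, Meis2, Hoxc4 and Pax1.

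BMP signals drive condensation and cartilage growth, and both some ligands and some of their antagonists were called higher in chondroblasts. Of 20 tested ligands, receptors and SMADs, 7 were called higher and none lower (median 0.32). Bmp2 measured 1.87, 3.90 and 2.35 CPM in OCPs and 35.1, 38.5 and 30.9 CPM in chondroblasts (3.70 ± 0.39, adjusted p = 1.63e-05). Gdf10 (2.55 ± 0.43), Bmp5 (2.21 ± 0.17), Gdf6 (1.46 ± 0.32), the BMP receptor gene Bmpr1b (1.29 ± 0.14), which is needed for digit cartilage, and the intracellular mediator gene Smad9 (2.95 ± 0.41) were called alongside Gdf5. Bmpr1b was at 1.13 and not called without chondroblast replicate 3. Bmp4 and Bmp7, the other main ligands of the bud, differed little, by 0.30 ± 0.14 and 0.22 ± 0.09 (adjusted p = 0.138 and 0.0739).

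Of 23 BMP antagonists and target genes, 9 were called higher and 1 lower (median 0.75). Nog, the antagonist made by condensing cartilage, measured 1.22, 2.81 and 2.57 CPM in OCPs and 6.93, 10.1 and 10.1 CPM in chondroblasts (2.04 ± 0.29, adjusted p = 0.000181). The secreted modulators Bmper (6.17 to 33.1 CPM), Smoc2 (17.5 to 69.4 CPM), Chrdl1 (49.8 to 121 CPM) and Chrd (5.03 to 11.8 CPM) were called in the same direction. Chrdl1 lost its call without chondroblast replicate 3 (1.13) or OCP replicate 1 (1.17), and Chrd without chondroblast replicate 2 (1.13) or OCP replicate 1 (0.95). Opposite to them, Smoc1, the paralogue of Smoc2, was called lower at 152, 109.8 and 136 CPM against 55.6, 38.9 and 45.9 CPM (-1.50 ± 0.14, adjusted p = 7.02e-06). Grem1, the antagonist of the distal bud, was at means of 17.5 and 8.95 CPM (-0.97 ± 0.21, adjusted p = 0.0046), and was called without OCP replicate 2 (-1.22). The immediate BMP targets Id1 and Id3 were higher at adjusted p alone, by 0.58 ± 0.12 and 0.70 ± 0.09, and the inhibitory SMAD gene Smad6 differed by 0.10 ± 0.10 (adjusted p = 0.475).

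In the TGFβ and activin list, 5 of 20 genes were called higher and none lower, with a median of 0.71. Inhba, which encodes the subunit of activin A, was at 0.162, 0 and 0.289 CPM in OCPs and at 5.01, 6.67 and 2.83 CPM in chondroblasts (4.87 ± 0.61, adjusted p = 0.000147). The latent TGFβ binding protein genes Ltbp1 (75.8 to 257 CPM, 1.76 ± 0.17) and Ltbp3 (21.2 to 67.9 CPM, 1.68 ± 0.18) and the receptor gene Tgfbr2 (20.1 to 52.6 CPM, 1.39 ± 0.12) were called too. The ligand genes Tgfb2 and Tgfb3 differed by 0.50 ± 0.22 and 0.75 ± 0.08, below the limit.

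FGF genes gave 3 calls among 24, all higher, against 6.60% called higher over all tested genes. They included Fgf18, a ligand of growing cartilage (6.18 to 21.5 CPM, 1.79 ± 0.17), and its receptor gene Fgfr3 (24.8 to 60.4 CPM, 1.28 ± 0.21). The third was Fgf2, at means of 0.259 and 1.07 CPM. Fgfr3 was under the limit without chondroblast replicate 3 (1.10) or OCP replicate 1 (1.05). Dusp6, a feedback target of FGF signalling, was at 212, 229 and 206 CPM in OCPs and 210.2, 202 and 187 CPM in chondroblasts (-0.11 ± 0.16, adjusted p = 0.64). In the Hedgehog list of 16 genes, Ihh was the only call, near the 6.60% of all tested genes called higher. Shh stayed near the counting limit in both, at 0.219 and 0.202 CPM, and its target genes Ptch1 and Gli1 differed by 0.60 ± 0.11 and 0.21 ± 0.20 (adjusted p = 0.00173 and 0.462).

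WNT genes were split, with 6 called higher and 3 lower among 42 and a median of 0.09. Wnt5a, a ligand that directs outgrowth and cell polarity, measured 132, 112 and 139 CPM in OCPs and 352, 422 and 489.9 CPM in chondroblasts (1.72 ± 0.13, adjusted p = 1.67e-06). Lgr5, a receptor of R-spondins, rose from 1.05, 1.09 and 1.09 CPM to 10.6, 10.7 and 8.72 CPM (3.21 ± 0.23, adjusted p = 9.43e-07). The R-spondin genes Rspo2 and Rspo4, whose products strengthen WNT signalling, fell from 44.7, 31.5 and 36.2 to 11.6, 7.97 and 6.28 CPM (-2.12 ± 0.26) and from 43.2, 21.2 and 27.8 to 5.72, 3.35 and 2.16 CPM (-3.02 ± 0.38). The third gene called lower was Notum, a feedback inhibitor and WNT target. Of the other targets, Axin2 overlapped (-0.40 ± 0.21, adjusted p = 0.17) and Tcf7 was lower at adjusted p alone (-0.82 ± 0.16). The inhibitor genes Dkk2 and Frzb were called higher, at 2.12 ± 0.37 and 1.44 ± 0.19, and Sfrp1 lay just under the limit on the lower side (-1.19 ± 0.37). Frzb lost its call without chondroblast replicate 3 (1.16), and Sfrp1 gained one without chondroblast replicate 1 (-1.302) or OCP replicate 2 (-1.26).

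In the Notch list 5 of 20 genes were called higher and 1 lower, with a median of 0.53. Jag1, the ligand gene used in the study to sort LMPs, measured 16.9, 20.9 and 21.3 CPM in OCPs and 102, 119 and 137 CPM in chondroblasts (2.60 ± 0.17, adjusted p = 3.32e-07), and 296 CPM on average in S9-JAG1+ LMPs. The target genes Hey2 and Nrarp were called higher (1.66 ± 0.35 and 1.36 ± 0.22), while Hes1 overlapped (-0.02 ± 0.15, adjusted p = 0.927). Nrarp was at 1.12 and not called without chondroblast replicate 3 and OCP replicate 1 together. Retinoid genes gave 2 calls on each side among 16. Aldh1a2, the main enzyme of retinoic acid synthesis in the embryo, was at 4.58, 8.51 and 9.15 CPM in OCPs and at 72.2, 109 and 115 CPM in chondroblasts (3.73 ± 0.36, adjusted p = 8.74e-06), and at 0.777 to 2.87 CPM on average in the other populations. Cyp26b1, which breaks retinoic acid down, overlapped at means of 205 and 242 CPM (0.24 ± 0.11, adjusted p = 0.132). The retinoid-regulated genes Rarb and Crabp1 were called lower at -1.56 ± 0.39 and -1.37 ± 0.34. These 2 calls rest on single libraries: Rarb was at -1.15 and not called without chondroblast replicate 3, and Crabp1 at -0.81 and not called without OCP replicate 1.

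**Figure D3:**
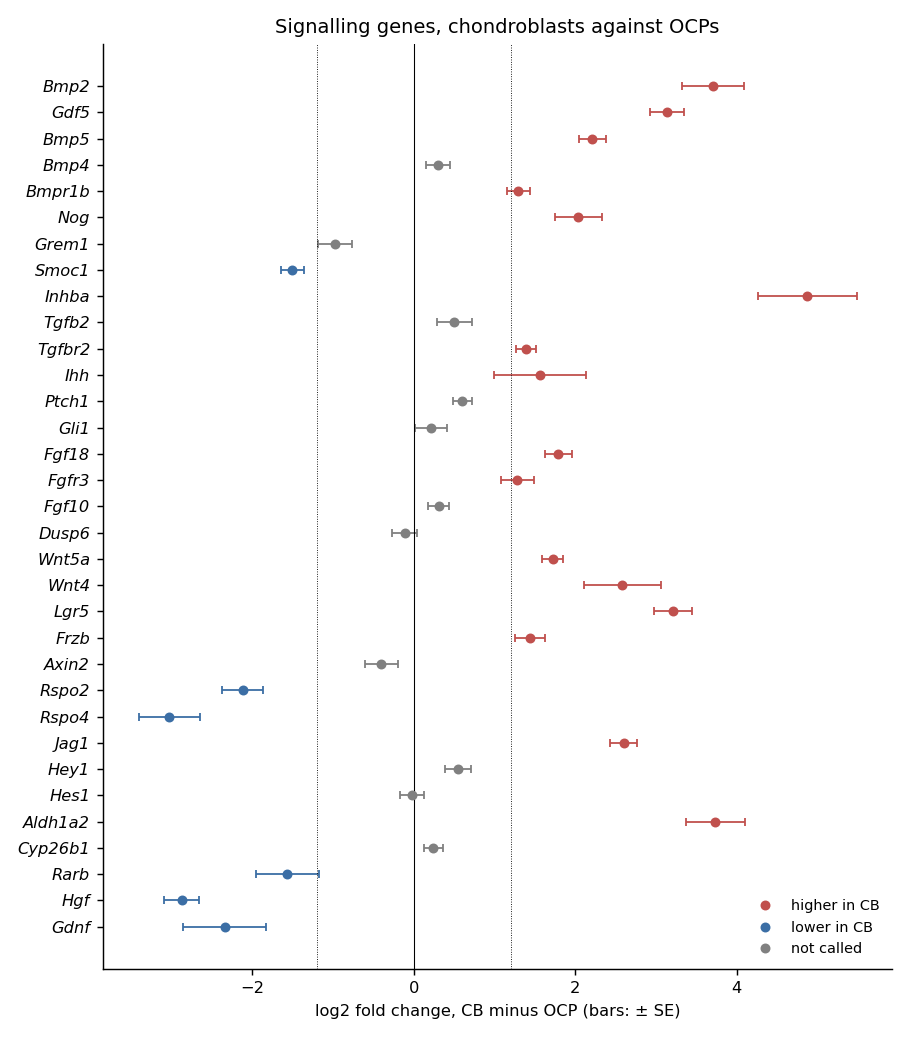
Log2 fold change between chondroblasts and OCPs (x axis) of 33 signalling genes, with bars of ± 1 SE of the fitted value (3 libraries per population). Red points are called higher, blue points called lower and grey points not called, and dotted lines mark the limit of 1.2; the BMP ligands Bmp2, Gdf5 and Bmp5 and the activin gene Inhba lie far to the right, and Rspo4, Hgf, Gdnf and Rspo2 furthest to the left.

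Genes of growth had small negative log2 fold changes, and no member of the 3 lists of ribosome biogenesis, S-phase and mitosis genes was called by edgeR or by DESeq2. All 45 ribosome biogenesis genes had a negative log2 fold change, 41 of them with an adjusted p within the limit, against 16.5% of all genes, and 43 with an unadjusted p under 0.05. Their median was -0.42. Npm1, which encodes nucleophosmin, measured 1259, 847 and 915 CPM in OCPs and 673, 583 and 638 CPM in chondroblasts (-0.67 ± 0.14, adjusted p = 0.00317). All 29 S-phase genes had a negative log2 fold change, with a median of -0.41, and 25 passed the adjusted p alone (26 at an unadjusted p under 0.05). Ccne1, which encodes cyclin E1, went from 125, 110.2 and 113 CPM to 71.2, 54.8 and 53.1 CPM (-0.96 ± 0.12, adjusted p = 8.28e-05), and Rrm2, a subunit gene of ribonucleotide reductase, from a mean of 350.2 to 205 CPM (-0.77 ± 0.09). Mitosis genes were lower at adjusted p alone in 15 of 25, the same number as at an unadjusted p under 0.05, with a median of -0.30. Mki67 and Top2a, common markers of cycling cells, overlapped between the populations (-0.18 ± 0.17 and -0.18 ± 0.10). Cdkn1c, which encodes a CDK inhibitor of cartilage, was at 1023 and 1076 CPM (0.07 ± 0.10, adjusted p = 0.623), and Cdkn1b was higher at adjusted p alone (0.47 ± 0.09).

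Most genes of early embryonic timing were lower at adjusted p. Of 16 tested members, 3 were called lower and none higher, and 13 were lower at adjusted p alone, with a median of -0.57. Lin28a, an RNA-binding protein gene that blocks the let-7 microRNAs, measured 55.8, 12.0 and 15.05 CPM in OCPs and 1.38, 0.753 and 1.02 CPM in chondroblasts (-4.71 ± 0.85, adjusted p = 0.00127). OCP replicate 1 was the highest library, and without it the log2 fold change was -3.68. Its paralogue Lin28b went from 85.5, 82.6 and 71.0 CPM to 34.7, 28.7 and 31.1 CPM (-1.34 ± 0.13, adjusted p = 1.03e-05). Sall4 was the third call, and Trim71, a let-7 target, missed the limit at -1.12 ± 0.12 and passed it without chondroblast replicate 3 (-1.23) or OCP replicate 3 (-1.24). The chromatin protein genes Hmga1 and Hmga2 were lower at adjusted p alone, by -0.96 ± 0.15 and -0.72 ± 0.13. In the list of imprinted and IGF genes, 2 of 23 were called higher, near the 6.60% of all tested genes, Igfbp5 and the zinc finger gene Plagl1 (35.7 to 96.0 CPM, 1.43 ± 0.22), and the median was -0.01. Igf2 overlapped at means of 5864 and 6412 CPM, and Peg3 was lower at adjusted p alone (1948 to 1048 CPM, -0.89 ± 0.14).

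Glycolytic genes differed little, with 2 called higher and 1 lower among 25, against 6.60% and 1.16% of all tested genes, and a median of -0.08. The glucose transporter gene Slc2a3 rose from 7.75, 6.47 and 8.64 CPM to 23.8, 28.7 and 29.6 CPM (1.84 ± 0.16, adjusted p = 4.77e-06). The enzyme genes Pkm and Eno1 were lower at adjusted p alone (-0.68 ± 0.16 and -0.75 ± 0.15), and in both of them OCP replicate 2 was the lowest OCP library, at 914 CPM for Pkm against 1644 and 1275 CPM. Of 22 early response and heat shock genes none was called by edgeR or DESeq2, 5 passed the adjusted p alone, 5 had an unadjusted p under 0.05, and OCP libraries spread widely. Jun was at 254, 807 and 430.0 CPM and Egr1 at 43.0, 190.2 and 141 CPM in OCP replicates 1 to 3, and at 392 to 567 and 132 to 261 CPM in chondroblasts. OCP replicate 1 was the lowest of the 6 libraries for both genes. Without it, the heat shock gene Hspa1a was called lower in chondroblasts (-2.06, adjusted p = 0.0912, edgeR).

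**Figure D4:**
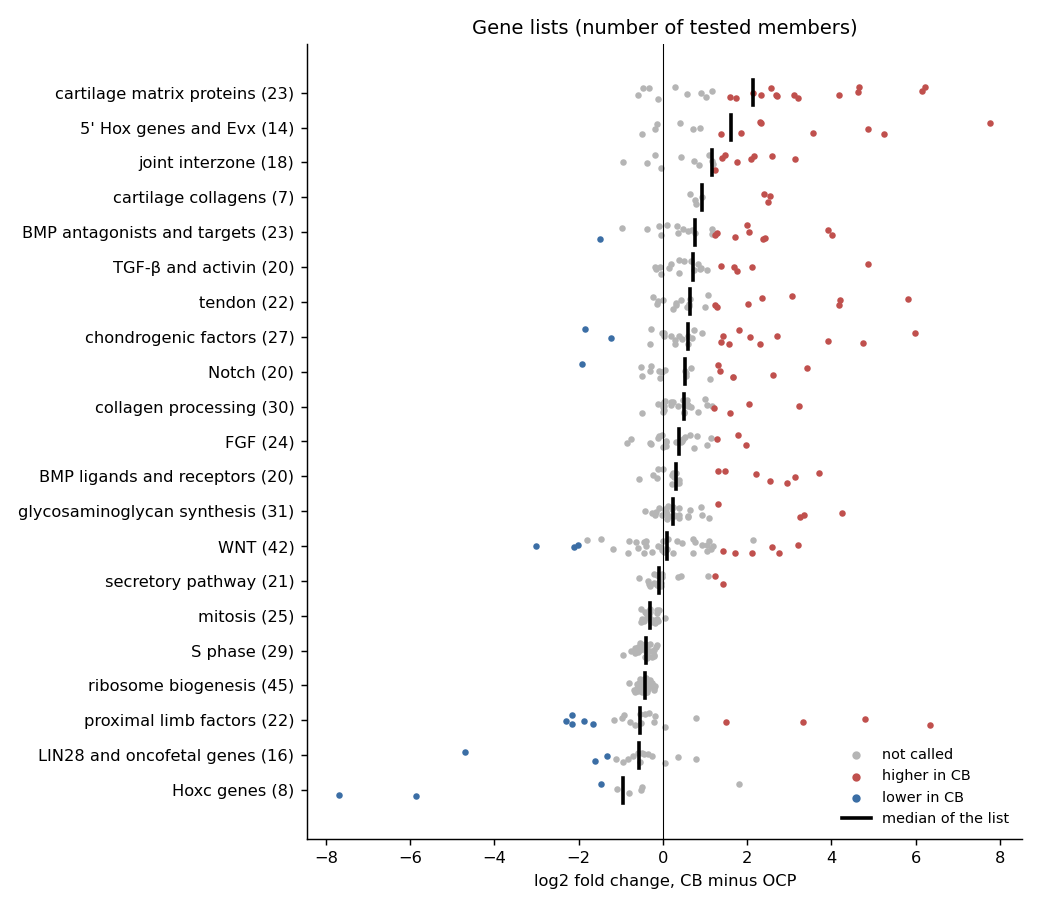
Log2 fold change between chondroblasts and OCPs of each tested member of 21 gene lists (x axis), with the number of members in brackets, sorted by the list median (black line). Red points are called higher, blue points called lower and grey points not called; matrix proteins, 5′ Hox genes and joint genes have the highest medians, and ribosome biogenesis, S-phase, proximal, LIN28 and HoxC genes the lowest.

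Ranked by size without regard to function, with a mean of at least 4 CPM in the higher population and no overlap of libraries, the 12 largest differences towards chondroblasts mixed regulators and matrix genes. First was Eomes, a T-box factor known from the early embryo, with no read in OCPs and 6.15, 22.8 and 24.9 CPM in chondroblasts, or at least 429-fold higher against a limit of 3 counts over the OCP libraries. Its means were 0.0332 and 0.0964 CPM in the LMP populations and 0 in S9-SCA-1+ cells. Evx2, Pax9, Acan, Nkx3-2 and Kera came next, and then Rxfp3, the receptor of relaxin 3, at 0, 0.19 and 0.109 CPM against 2.83, 4.35 and 5.42 CPM (5.38 ± 0.74). Ogn, a small leucine-rich protein gene related to Kera, followed at 0.325, 0.808 and 0.579 CPM against 20.4, 28.3 and 21.1 CPM (5.36 ± 0.35). Hottip, Shisa6, which encodes a membrane protein known from glutamate receptors (5.20 ± 0.44), Hoxa13 and Inhba completed the group.

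The 6 most abundant genes called higher were Igfbp5, Wnt5a, Ebf3, Vim, Hoxd13 and Lars2. Igfbp5, which binds insulin-like growth factors in the matrix, stood at 132, 212 and 218 CPM in OCPs and 929, 953 and 549 CPM in chondroblasts (2.11 ± 0.46, adjusted p = 0.00416). Vim, the gene of the intermediate filament vimentin, was the most even, at 126, 126 and 132 CPM against 382, 382 and 340.5 CPM (1.52 ± 0.07, adjusted p = 2.43e-08). Ebf3, a transcription factor of mesenchyme, was at means of 130.4 and 403 CPM (1.63 ± 0.22). Lars2, a mitochondrial tRNA synthetase gene, was decided by 1 library. Its chondroblast libraries held 169, 639.9 and 74.1 CPM against 126, 73.4 and 80.1 CPM in OCPs, and without chondroblast replicate 2 its log2 fold change was 0.37 and it was not called. Nor was it without OCP replicate 3 (1.53).

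On the other side, the 12 largest differences towards OCPs by the same rule were led by Lin28a and Igdcc3. Igdcc3 encodes a cell surface protein of the immunoglobulin superfamily and measured 745, 409 and 487 CPM in OCPs against 51.4, 40.5 and 45.7 CPM in chondroblasts (-3.58 ± 0.25, adjusted p = 6.13e-07). Prtg (protogenin), of the same superfamily, was at means of 45.9 and 9.02 CPM (-2.35 ± 0.23). Dpep1, a membrane dipeptidase gene (-3.48 ± 0.33), Rspo4, the zinc finger gene Zmat4 (-2.94 ± 0.39), the nitric oxide synthase gene Nos1 (-2.57 ± 0.31), the cyclic AMP phosphodiesterase gene Pde8a (-2.38 ± 0.21), Shisa7 (-2.37 ± 0.42) and Irx3 were further members. Hgf, the ligand that draws muscle precursors into the limb, measured 54.3, 49.3 and 42.2 CPM in OCPs and 8.21, 5.85 and 5.81 CPM in chondroblasts (-2.87 ± 0.22, adjusted p = 1.42e-06). Gdnf, a ligand for motor axons and other RET-expressing cells, measured 28.1, 27.6 and 28.4 CPM against 8.27, 7.73 and 0.432 CPM (-2.34 ± 0.51), and -1.83 without chondroblast replicate 3.

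The most abundant genes called lower were Pkdcc, Fndc3c1, Igdcc3, Scube1, Casd1 and Lix1, with means of 332 to 650.0 CPM in OCPs. Pkdcc, a secreted protein kinase gene with a role in long bone growth, was at 729, 577 and 644 CPM against 271, 216 and 61.3 CPM (-1.83 ± 0.46, adjusted p = 0.0101), and -1.44 without chondroblast replicate 3. Fndc3c1, an X-linked gene of a fibronectin domain protein, was at 609, 576 and 498 CPM against 198, 173 and 189 CPM (-1.59 ± 0.10, adjusted p = 3.06e-07). Lix1, known from early limb mesenchyme, was at means of 332 and 77.4 CPM (-2.10 ± 0.17). The calls of Scube1 (-1.25 ± 0.16) and Casd1 (-1.23 ± 0.10) lay at the limit on the fold change. Scube1 was at -1.19 without chondroblast replicate 3, and Casd1 at -1.18 without chondroblast replicate 2 and -1.17 without OCP replicate 1.

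Markers of other cell types were at low levels in all 6 libraries, and some moved with the comparison. The summed level of 13 neural and glial markers was 18.98 to 30.4 CPM in OCPs and 41.3 to 49.5 CPM in chondroblasts, and 3 of 11 tested were called higher, among them Stmn2 (3.53 ± 0.36) and Erbb3 (4.09 to 13.7 CPM). The defining neural crest factor gene Sox10 overlapped at means of 2.98 and 2.78 CPM. The 13 muscle markers summed to 11.2 to 12.6 CPM in OCPs and 14.4 to 18.8 CPM in chondroblasts, with 6 called higher and 2 lower of 12 tested. Myogenic factor genes such as Myog (0.112 to 0.722 CPM) and Myod1 (0.257 to 0.675 CPM) were among the higher, and Pax3 and Chrna1 were the lower. The 13 ectoderm markers summed to 13.6 to 14.9 CPM in OCPs and 21.6 to 25.6 CPM in chondroblasts, with Fgf8, Grhl3 and Cldn6 called higher and Krt5 and Krt14 at means of at most 0.452 CPM. Endothelial markers summed to 10.7 to 15.2 CPM over the 6 libraries, with Flt1 and Tie1 called lower and Pecam1 at means of 0.68 and 0.636 CPM. Blood markers summed to 14.6 to 100.1 CPM, with OCP replicate 2 the lowest and Hbb-bs called higher. Of 12 leukocyte markers only Cd68 was tested, and it overlapped. Without OCP replicate 1, Hbb-bs (3.35), Tie1 (-1.245) and Myod1 (1.201) were not called, and without chondroblast replicate 3, Cldn6 (1.55) and Pax3 (-1.93) were not. The part of such cells in the other differences was not tested.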

How the data were processed

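Poly(A) RNA of the sorted populations was sequenced as single reads. According to the authors' methods, reads were aligned to mm10 with STAR and counted per RefSeq gene with qCount of QuasR, and the deposited table holds raw counts per gene for 14 libraries, with no normalisation. 1 hit was kept for a read that mapped to several places, so near-identical paralogues share reads. Strand use is not given in the sources used here. Of 24454 identifiers, 73 (0.334% of counts) had no symbol in the RefSeq and gene name tables.

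Genes were filtered with filterByExpr by population, scaled by TMM and fitted in R 4.3.3 with edgeR 4.0.16 as a mean for each of 5 populations over all 14 libraries, without replicate blocks. Chondroblasts minus OCPs was tested with the quasi-likelihood F test, with Benjamini-Hochberg adjustment over all tested genes. A call required both an adjusted p no higher than 0.1 and a log2 fold change of 1.2 or more in size, the limits of the study's methods, which do not say whether p was adjusted. The SE is the log2 fold change divided by the square root of F. The common biological coefficient of variation was 13.4%. All pairs of replicates differed by more than sampling noise (chi-square per degree of freedom 15.9 to 76.3). RPKM divides CPM by the gene length in the table. Folds against 0 counts use 3 counts over the 3 libraries, and intervals cover counting error only. The test was checked on simulated data: for this contrast, over 14196 genes, 200 of 200 changed genes were recovered with 0 false calls. The share of false calls or of missed differences in the sequenced libraries themselves was not tested. Nor was it tested there for genes near the limit on the fold change, of low level or with single libraries apart.

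Named are the genes of the gate and the markers, in each direction the 12 largest called differences (at least 4 CPM, no overlap) and the 6 most abundant called genes, and members of 38 lists (751 genes), which are described by counts and medians only. The members, lists and rules were chosen with earlier results of these data known, and examples within lists after their values were seen. Alternatives covered scaling, filters, thresholds, DESeq2 1.42.0, thinned counts, other sets of libraries and a replicate block. Figures were drawn with matplotlib 3.10.9 in Python 3.11.15. Some genes are not reported here.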

Additional observations from a re-analysis of the deposited data

How the results depend on the processing

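No called gene changed sign under any of the 17 alternative fits. Without a limit on the fold change, 5263 genes were called, 2769 higher and 2494 lower, and with a limit of 2 there were 499, 442 higher and 57 lower. Leaving out 1 library at a time gave 961 to 1237 calls, 800 to 1054 of them higher and 155 to 192 lower. With scaling by library totals 1071 were higher and 152 lower, and with DESeq2 937 and 173. Same-numbered libraries of the populations showed no common deviation (r of -0.059, 0.042 and -0.009), and pairs of unlike number gave -0.077 to 0.091. With deviations from means of only 3 libraries, such values cannot exclude a pairing by number. The fit with a replicate block called 995 higher and 171 lower, and 1143 of these calls were shared with the fit without it. Of 177 named genes called, 122 were called under all 17 alternative fits and 12 more wherever a value could be had, which for them was 11 to 16 fits. The others included Lars2, Ihh, Sox8, Scube1, Casd1, Rarb, Crabp1, Meis2 and Hoxc10. List medians moved by more than the spread between replicates in 89 of 646 values. With 3 libraries per population, genes under 1 CPM rest on few reads.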
